A study of Sus scrofa with 2 samples.

Results

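Ubiquitin-conjugating (E2) enzymes and deubiquitinases were described in porcine follicular granulosa cells. These are the somatic cells around the oocyte, here from ovaries of Chinese Erhualian pigs. Members were taken by name from the entries of type mRNA: symbols beginning UBE2 and a letter, USP and a digit, UCHL or OTU, leaving out UBE2C. They number 78 of 34570 listed genes: 24 E2 enzymes, 53 deubiquitinases, and USP6NL, a RAB GTPase-activating protein that shares only the name. The control group received NC-siRNA and the other group received SMAD4-siRNA, directed at SMAD4, the shared partner of receptor-activated SMADs. Each group is 1 sequenced library of total RNA, mixed in equal amounts from 3 individuals. The labels give no ages, doses or times, and they do not say whether the same animals served both groups. There are no replicates, so no difference below was tested against variation between animals or transfections.

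Ubiquitin is attached to proteins in a relay. An E1 enzyme activates it, an E2 enzyme carries it on a cysteine, and an E3 ligase directs it to a substrate, while deubiquitinases cut it off again. Relatives of ubiquitin use their own E2 enzymes: UBE2F and UBE2M carry NEDD8, and UBE2L6 carries ISG15, the interferon-induced modifier that USP18 removes. The TGF-beta pathway is itself controlled by this system, since SMADs and their receptors are ubiquitinated by SMURF ligases and rescued by several deubiquitinases.

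Values are upper-quartile scaled RPKM, a level per transcript length, so levels of different genes can be set side by side. Ratios are plain SMAD4 siRNA values over control values, and the range in parentheses is an exact Clopper-Pearson 95% counting interval. It comes from the smallest whole reads that the values allow, which total at least 17680952 for control and 17394711 for SMAD4 siRNA. The intervals cover counting error only. SMAD4 itself had a value of 85.0 with control siRNA and 47.9 with SMAD4 siRNA, a ratio of 0.563 (0.497 to 0.639). Of 16 granulosa markers, both libraries list AMH, INHBB, CYP11A1 and CYP19A1 at 0, and the other 12 ran from a ratio of 0.493 (AMHR2, on 54 reads) to 2.27 (STAR, on 21). FOXL2 was at 1.11 (0.874 to 1.40), HSD3B1 at 1.90 (1.85 to 1.94), INHBA at 1.31 (1.22 to 1.41) and NR5A1 at 0.849 (0.741 to 0.973). Widely expressed genes such as USP1, USP48 and UBE2V2 are listed at 0 too, so a listed 0 does not show that a gene is silent, for members and markers alike. Markers of other cells also differed between the libraries. Of the theca list, 5 of 5 measured entries, of COL1A2, COL3A1, DCN and PDGFRA, had intervals below 1 (ratios 0.743 to 0.907). Among all genes with at least 100 reads this share was 32.4%. CYP17A1, INSL3 and LHCGR of that list were listed at 0. The mean value was 45515 for COL1A2, against 17856 for HSD3B1, the highest granulosa marker. Of 5 measured endothelial markers, 2 had intervals below 1, PECAM1 at 0.875 (0.793 to 0.964) and ERG at 0.582 (0.442 to 0.763). CLDN5, KDR and VWF, on 13 to 18 reads, had intervals that include 1. All 6 of 6 measured pancreatic acinar genes also had intervals below 1, among them CTRB2 (146 and 45 reads), CLPS (47 and 0) and CPB1 (34 and 2). The acinar list was chosen with earlier results of these data known, so this count carries no weight of its own. The part of these cells in the results below was not tested. Rescaling both libraries to the same sum would multiply every ratio by 1.09 and turn those between 0.921 and 1 to the other side of 1.

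Most members had similar values in both libraries. Among those with at least 100 reads the ends were UBE2L6, the E2 enzyme of ISG15, at a ratio of 1.95 and USP40 at 0.517. Of the 78 members, 72 had reads, 68 reached a mean value of 1 and 59 had at least 100 reads over both libraries. By the rule of at least 2-fold on the scale of log2(value + 1), applied where the mean value is at least 1, 0 of 68 members were higher, against 7.17% of all genes that passed the same minimum. By the same rule 1 of 68 was lower (USP43), against 6.68% of all genes. Many of those other genes have few reads, so a smaller fold was also read among genes with at least 100 reads. There 5 of 59 members were higher by at least 1.5-fold (UBE2L6, UBE2D3, UBE2T, USP18 and USP53), against 4.62% of all genes with as many reads. In the other direction 4 of 59 were lower by as much (USP12, USP13, USP31 and USP40), against 5.84% of all such genes. With both libraries rescaled to the same sum, 7 would be higher, UBE2W and USP47 joining, against 6.63% of all genes with as many reads, and 2 lower, USP31 and USP40, against 3.71%. A counting interval lay wholly above 1 for 14 of the 59 and wholly below 1 for 19, which is 23.7% and 32.2% against 17.6% and 32.4% of all genes with at least 100 reads. The second of these shares is near that of all genes, and the first is somewhat above it.

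**Figure D1:**
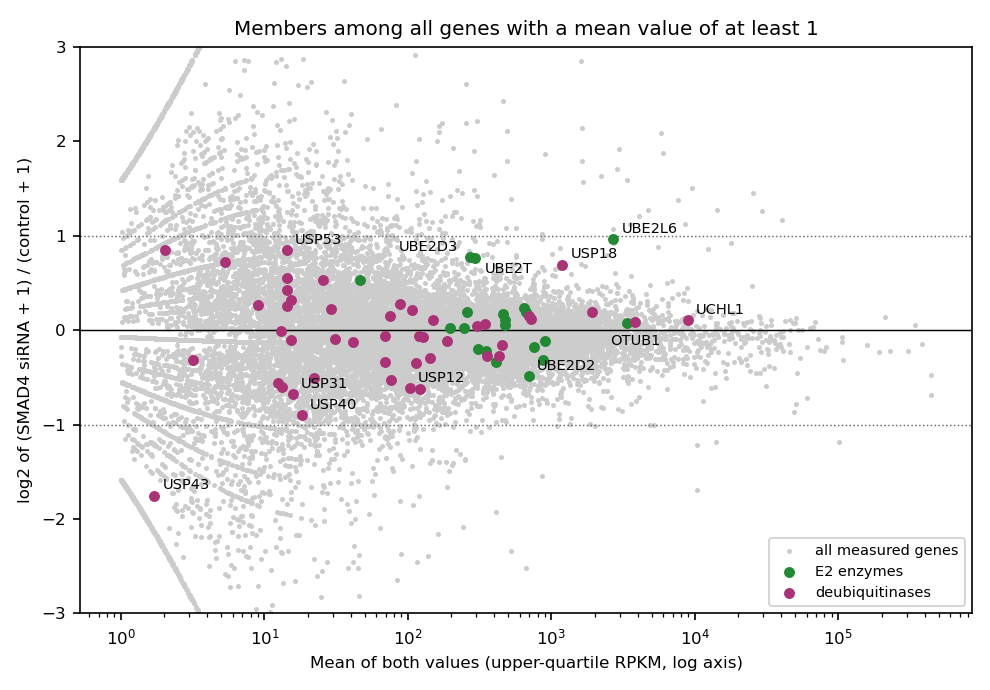
Log2 ratio of the values, each with 1 added, SMAD4 siRNA over control, against the mean of both values (log axis), 1 point per gene, for all genes whose mean value reaches 1 (grey), 20 E2 enzymes (green) and deubiquitinases (purple). Dotted lines mark 2-fold, 204 grey genes lie outside the drawn range of -3 to 3, and UBE2L6 sits just under the upper line while USP43, at very low level, is the member under the lower one.

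The interferon-linked members, UBE2L6 and USP18, were both higher in the SMAD4 siRNA library. UBE2L6, the E2 enzyme of ISG15, had a value of 1829 with control siRNA and 3563 with SMAD4 siRNA, from at least 752 and 1613 reads. Its ratio was 1.95 (1.79 to 2.13), so its interval reaches across 2-fold, and 2.11 after rescaling. USP18, the protease that takes ISG15 off proteins and also restrains the type I interferon receptor, had values of 908 and 1470 from at least 1351 and 2408 reads. Its ratio was 1.62 (1.51 to 1.73). Both were already among the stronger members of their families in the control library, where UBE2L6 was the second-highest E2 enzyme and USP18 the fourth-highest deubiquitinase. In RNA from whole cultures, more RNA per cell and more cells that make it cannot be told apart.

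Among the partners of these members in the same relay, UBA7 and HERC5 lay on the same side. UBA7, the E1 enzyme that activates ISG15, had values of 164 and 441, a ratio of 2.69 (2.42 to 2.99). HERC5, an ISG15 ligase, had values of 126 and 348, a ratio of 2.76 (2.32 to 3.30). ISG15 itself and the related ligase HERC6 were listed at 0 in both libraries, so the level of the modifier cannot be read here. The ubiquitin enzymes set beside them lay nearer to 1. They were picked for the same steps, and other ubiquitin enzymes lay further off, such as UBE2D3 at 1.71 and USP40 at 0.517. UBA1, the main E1 of ubiquitin, had values of 7056 and 6418, a ratio of 0.910 (0.893 to 0.927), and UBE2L3, the nearest E2 relative of UBE2L6, had 3256 and 3422, a ratio of 1.05 (0.993 to 1.11). ARIH1, a ligase that works with UBE2L3, was at 0.792 (0.694 to 0.904). The ratio of UBE2L3 over that of UBE2L6 was 0.540, with a counting interval of 0.486 to 0.599. Leukocytes also make interferon-induced genes. Of 8 leukocyte markers, PTPRC had 1 and 2 reads, ITGAM 4 and 9, LYZ 0 and 1, CSF1R 8 and 3, and CD79A 17 and 5. CD3E and CD163 were listed at 0. The summed level of the list, nearly all CD14, was 599.8 with control and 575 with SMAD4 siRNA. A part of leukocytes in these differences was not tested.

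**Figure D2:**
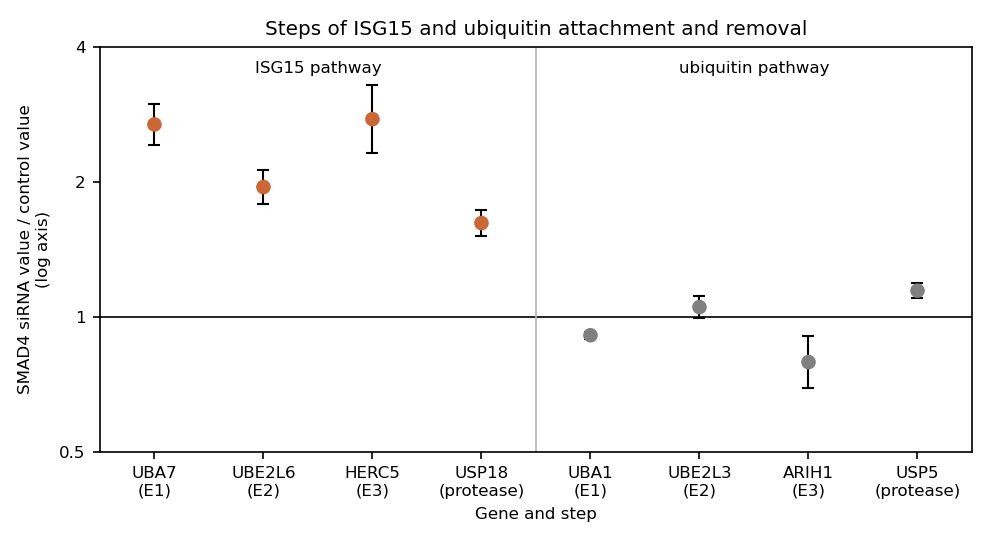
Ratio of the SMAD4 siRNA value to the control value (log axis) for 4 genes of ISG15 attachment and removal (orange) and 4 genes of the ubiquitin pathway (grey), with 95% counting intervals as bars, from 1 library per group. The 4 ISG15 genes drawn lie between 1.62 and 2.76, and the 4 ubiquitin genes drawn between 0.792 and 1.14. Other ubiquitin enzymes, not drawn, lie outside the second range, such as UBE2D3 at 1.71 and USP40 at 0.517.

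Among the E2 enzymes, UBE2L3 and UBE2L6 held the largest levels. All 21 E2 enzymes with reads had at least 100, with mean values from 46.6 (UBE2W) to 3339 (UBE2L3) and a median of 471. UBE2L3, which serves HECT and RING-between-RING ligases, took 21.8% of the summed E2 level with control siRNA and 20.5% with SMAD4 siRNA. UBE2L6 took 12.3% and then 21.3%, so that it stood level with UBE2L3 in the second library. UBE2V1 and UBE2Q1 were also among the 5 highest members, with mean values of 904 and 880.1. UBE2Z, which a reference table alone names and which is thus no member by the rule, had values of 1041 and 952, above both. The ranks, shares and sums given here leave out UBE2Z and other E2 entries named in that way. The summed E2 level was 14917 with control and 16722 with SMAD4 siRNA. Without UBE2L6 it was 13088 and 13159. With both libraries rescaled to the same sum, the E2 level was 14330 and 17436, and 12573 and 13721 without UBE2L6, so how much of the difference lay in that gene depends on the scaling.

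**Figure D3:**
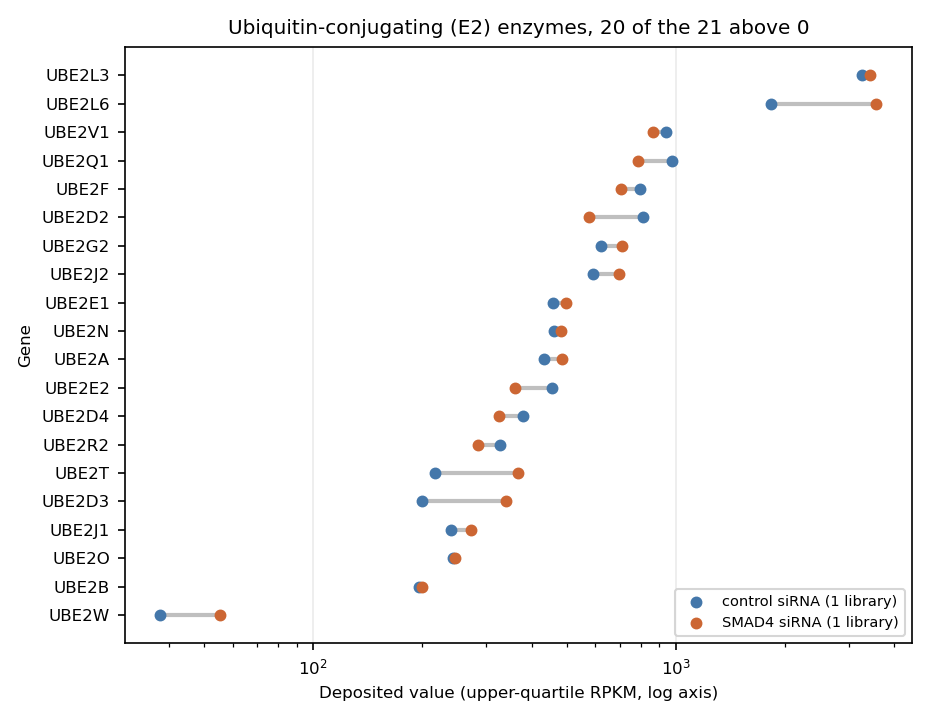
Deposited value (upper-quartile RPKM, log axis) of 20 of the 21 E2 enzymes above 0, in the control library (blue) and the SMAD4 siRNA library (orange), ordered by their mean, with a grey line joining the 2 values of a gene. The long lines belong to UBE2L6, UBE2T and UBE2D3, which are higher in the SMAD4 siRNA library, to UBE2D2, which is lower there, and to UBE2W, the gene with the lowest level.

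The median log2 ratio of the E2 enzymes was 0.06, with 14 of 21 above 0. Over the 16609 genes whose mean value reaches 1 the median was -0.05, with 45.5% above 0. Other E2 enzymes, named by a reference table alone, are no members by the rule. Of these, UBE2E3 (0.724), UBE2H (0.803), UBE2G1 (0.854) and UBE2Z (0.915) had intervals below 1. UBE2QL1 (0.855) had an interval that includes 1, and UBE2K (1.33) had one above 1. With the entries so named added, the median log2 ratio of the E2 enzymes was 0.0206. UBE2D2, UBE2D3 and UBE2D4 belong to a family of E2 enzymes that work with many RING ligases, and they went different ways. UBE2D3 had values of 199 and 341, a ratio of 1.71 (1.51 to 1.94). UBE2D2 had values of 809 and 576, a ratio of 0.712 (0.597 to 0.848). UBE2D4 was at 0.858 (0.763 to 0.964). UBE2D2 and UBE2D3 encode nearly the same protein and their transcripts can share reads. The labels do not say how reads were assigned between them, so this contrast between them is uncertain. Their ratios differed by a factor of 0.416 (0.335 to 0.517).

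UBE2T, the E2 enzyme of the Fanconi anaemia pathway of DNA crosslink repair, had values of 217 and 368, a ratio of 1.70 (1.43 to 2.01). It is the member of the list of replication, repair and mitosis enzymes with the highest ratio. Of that list 8 members had a mean value of at least 1, with a median log2 ratio of 0.04. UBE2A and UBE2B, the RAD6 enzymes of damage tolerance and histone H2B ubiquitination, had ratios of 1.13 (0.977 to 1.30) and 1.02 (0.833 to 1.24). USP7, which stabilises MDM2 and p53, was at 0.825 (0.716 to 0.951), and USP28 at 0.791 (0.670 to 0.934). USP37 rested on 23 and 19 reads, and USP44, a mitotic checkpoint enzyme, on 7 and 0. The counting interval of USP44 reached up to a ratio of 0.630. USP1, the protease that reverses the reaction of UBE2T, was listed at 0 in both libraries.

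UBE2N builds lysine-63 chains with UBE2V1 or UBE2V2, partners that lack the active cysteine. UBE2N had a ratio of 1.04 (0.932 to 1.17), and UBE2V1 0.922 (0.863 to 0.984), which rescaling turns to the other side of 1. UBE2V2 was listed at 0 in both libraries, as were UBE2Q2 and UBE2U. Of the 4 measured members of endoplasmic reticulum quality control, 2 had an interval above 1 and 1 had an interval below 1. Among all genes with at least 100 reads these shares were 17.6% and 32.4%. UBE2J2 was at 1.18 (1.07 to 1.30), UBE2G2 at 1.14 (1.04 to 1.26) and UBE2J1 at 1.14 (0.944 to 1.38). USP19, a deubiquitinase anchored in that membrane, was at 0.830 (0.777 to 0.887). UBE2G1 and UBE2K of the same list are named by the reference table alone and are no members by the rule. Their entries were at 0.854 (0.748 to 0.975) and 1.33 (1.13 to 1.57).

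UBE2E2 had values of 456 and 360, a ratio of 0.789 (0.688 to 0.903), and its relative UBE2E1 was at 1.08 (0.960 to 1.22). A further entry that the reference table names UBE2E2 had 37 and 26 reads, so reads of this gene may be divided between entries. UBE2Q1 was at 0.804 (0.727 to 0.890). UBE2R2, a partner of cullin-RING ligases, was at 0.870 (0.796 to 0.952). UBE2F, which puts NEDD8 on cullins, was at 0.884 (0.808 to 0.966). UBE2O, a large enzyme that joins E2 and E3 activity, was at 1.01 (0.843 to 1.22). UBE2W, which attaches ubiquitin to protein amino termini, had 43 and 69 reads and a ratio of 1.46 (0.982 to 2.19).

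The deubiquitinases were dominated by a few genes. UCHL1, a ubiquitin hydrolase abundant in neurons and in the gonads, had values of 8563 and 9204 and took 42.2% of the summed deubiquitinase level in the control library. OTUB1, which cuts lysine-48 chains and also holds back E2 enzymes by binding them, followed with 3704 and 3945. USP5, which takes apart free ubiquitin chains, had 1803 and 2062. With USP18 and USP11 these genes made up 77.3% of the summed level of the 53 deubiquitinases with control siRNA and 80.1% with SMAD4 siRNA. UCHL1 is also strongly made in oocytes. Of 8 oocyte markers, ZP2, ZP3, DDX4, DAZL and NLRP5 were listed at 0 in both libraries, and the summed level of the list, mostly GDF9, was 77.4 and 61.7.

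At the other end, 16 of the 46 deubiquitinases with a mean value of at least 1 lay under 20, whereas 0 of 21 E2 enzymes did. The median mean value was 71.8 for these deubiquitinases and 471 for the E2 enzymes. Deubiquitinase transcripts were also longer, with a median smallest length of 3488.5 bases against 1141. Within the deubiquitinases, level and length had a Spearman rho of -0.45 across 46 genes, against -0.29 across the 21 E2 enzymes and -0.08 across all 13988 measured mRNA genes. This is across genes, which are not independent replicates, and level and length share the division by length. Long transcripts at low level included USP9X with a mean value of 15.3, USP34 with 9.06 and USP24 with 29.1. The log2 ratio had no such relation to length, with a rho of 0.03.

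**Figure D4:**
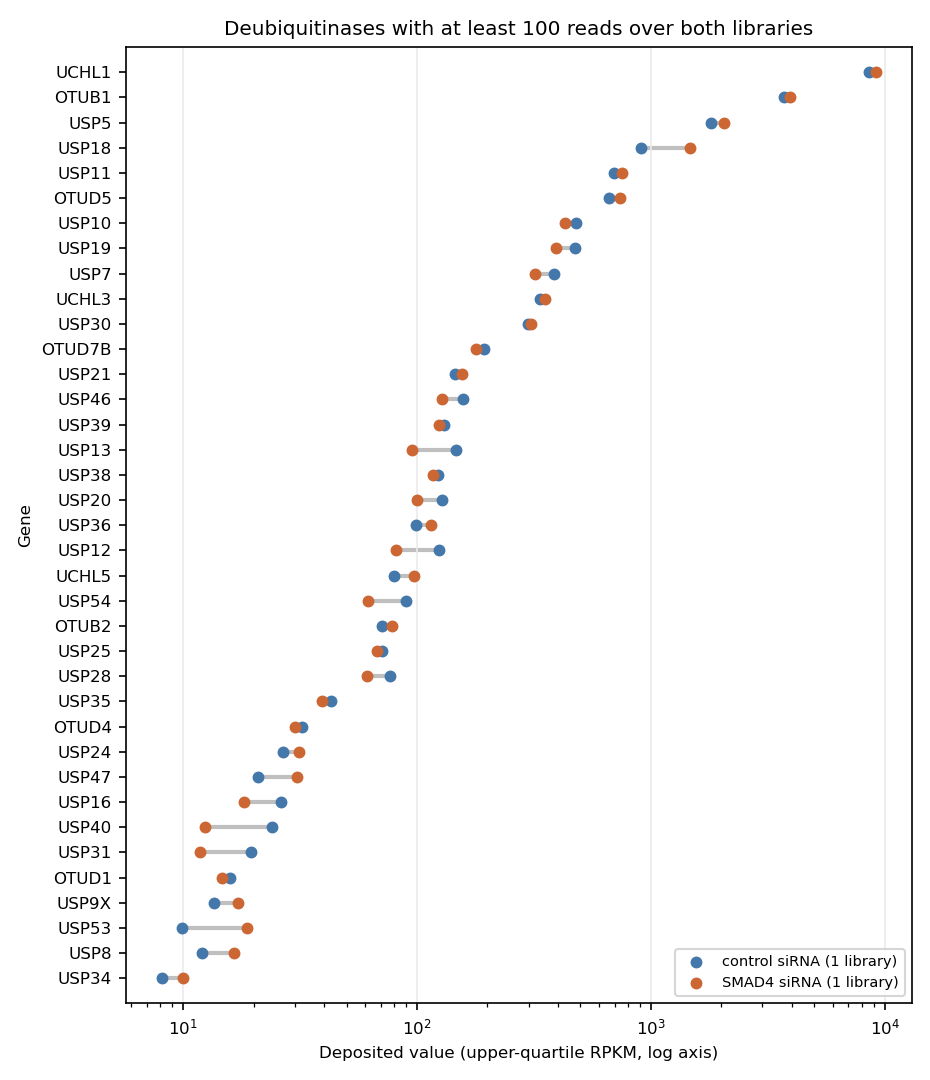
Deposited value (upper-quartile RPKM, log axis) of the 37 deubiquitinases with at least 100 reads over both libraries, in the control library (blue) and the SMAD4 siRNA library (orange), ordered by their mean, with a grey line joining the 2 values of a gene. UCHL1, OTUB1, USP5 and USP18 stand above the rest, and of these USP18 has the widest gap between libraries.

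The median log2 ratio of the deubiquitinases was -0.04 over 46 genes, 22 of them above 0, against 45.5% of all measured genes. This median turned to 0.08 when both libraries were rescaled to the same sum. The 3 genes with the highest levels differed little between libraries. UCHL1 had a ratio of 1.07 (1.04 to 1.11), OTUB1 1.07 (1.02 to 1.12) and USP5 1.14 (1.10 to 1.19), with intervals that exclude 1 at these depths. The other UCH enzymes were UCHL3, which also acts on NEDD8, at 1.05 (0.858 to 1.28), and UCHL5, a proteasome-bound enzyme, at 1.22 (0.840 to 1.77).

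Several deubiquitinases are known to act on TGF-beta receptors or SMADs, and none of those measured reached 1.5-fold with at least 100 reads. Of the 6 members of this list, 5 had a log2 ratio above 0, against 45.5% of all measured genes. After rescaling 6 of 6 had a ratio above 1, against 56.2% of all measured genes. Before rescaling, 2 of the 5 with at least 100 reads had a counting interval above 1, OTUB1 and USP11, against 17.6% of all genes with as many reads. The list had a median log2 ratio of 0.20, against -0.05 for all measured genes. USP9X, which removes ubiquitin from SMAD4, had values of 13.5 and 17.1 from at least 113 and 157 reads, a ratio of 1.26 (0.984 to 1.62). USP11, which acts on the type I TGF-beta receptor, had 697 and 755, a ratio of 1.08 (1.02 to 1.15). USP15, which acts on the receptor and on receptor-activated SMADs, had 11.4 and 17.2 on 9 and 15 reads, a ratio of 1.51 (0.621 to 3.92). OTUD1, an enzyme for the inhibitory SMAD7, had 15.9 and 14.7, a ratio of 0.926 (0.617 to 1.39). OTUB1 and UCHL5, given above, complete the list. USP4, a relative of USP11 and USP15 that stabilises the same receptor, is listed under an ID without a symbol and is thus no member by the rule. The entry that the reference table names USP4 had values of 444 and 348, a ratio of 0.783 (0.727 to 0.843).

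USP53 was, beside USP18, the other deubiquitinase with at least 100 reads that was higher by at least 1.5-fold. It had values of 9.93 and 18.7 from at least 57 and 118 reads, a ratio of 1.88 (1.36 to 2.63). Its relative USP54 lay on the opposite side, with values of 89.6 and 61.7 and a ratio of 0.689 (0.536 to 0.882). USP47, a deubiquitinase of DNA polymerase beta, had 20.9 and 30.6, a ratio of 1.46 (1.11 to 1.93). USP8, which acts on receptors at endosomes, was at 1.37 (0.957 to 1.98). USP36, the deubiquitinase of the nucleolus, was at 1.16 (1.04 to 1.30) and OTUD5 at 1.11 (1.05 to 1.17).

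**Figure D5:**
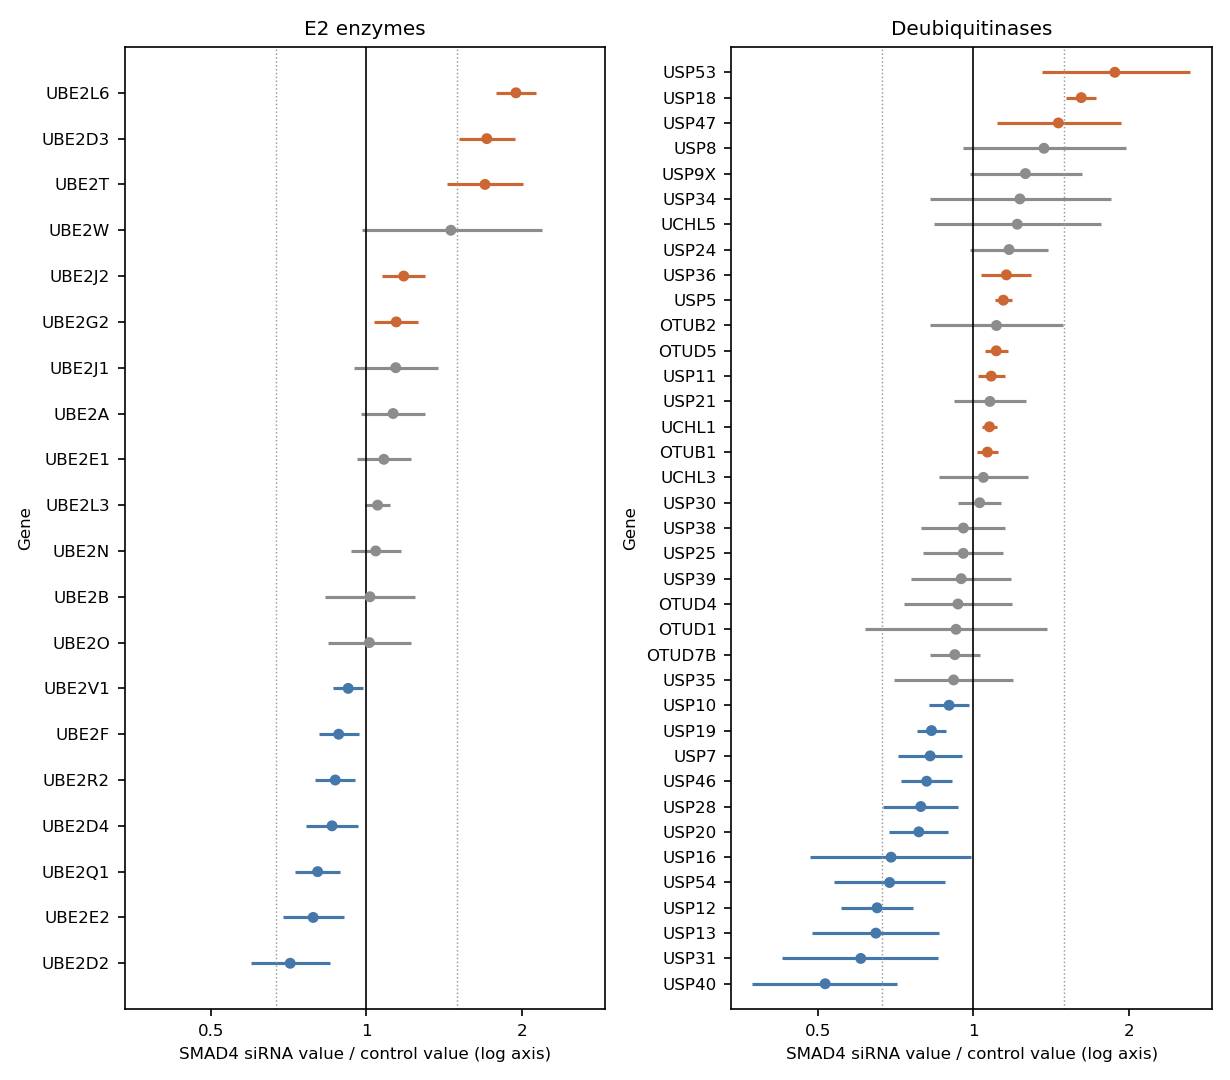
Ratio of the SMAD4 siRNA value to the control value (log axis) with its 95% counting interval for 20 of the 21 E2 enzymes and the 37 deubiquitinases with at least 100 reads, ordered by ratio. Orange and blue mark intervals wholly above and wholly below 1, dotted lines mark 1.5-fold, and the ends are UBE2L6 and UBE2D2 on the left and USP53 and USP40 on the right.

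The 4 deubiquitinases with at least 100 reads that were lower by at least 1.5-fold belong to the ubiquitin-specific proteases. USP40 had values of 24.0 and 12.4 from at least 109 and 62 reads, a ratio of 0.517 (0.372 to 0.712), the lowest of the members with at least 100 reads. USP31 had 19.6 and 11.8, a ratio of 0.605 (0.427 to 0.854). A further entry that the reference table names USP31 had 21 reads in each library and a ratio of 0.908. USP13, which has been tied to endoplasmic reticulum quality control and autophagy, had 147 and 95.3, a ratio of 0.648 (0.486 to 0.860).

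USP12 and its close relative USP46 share the activating cofactors WDR48 and WDR20. USP12 had values of 125 and 81.3 from at least 364 and 261 reads, a ratio of 0.651 (0.553 to 0.765). USP46 had 157 and 128, a ratio of 0.812 (0.725 to 0.910). Of the cofactors, WDR20 was at 0.768 (0.637 to 0.925) and WDR48, which also activates USP1, was at 1.20 (1.03 to 1.39). Thus both proteases and WDR20 had intervals below 1, and WDR48 had one above 1.

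Relatives within the families were set side by side in 12 pairs, chosen after their values had been seen. In 7 of the 12 the counting interval of the ratio of ratios excluded 1. The share among pairs of other genes was not taken, so this count cannot be called particular to these families. The contrast of USP53 over USP54 was 2.73 (1.80 to 4.15), and that of USP5 over USP13 was 1.77 (1.33 to 2.36). UBE2E1 over UBE2E2 was 1.37 (1.14 to 1.64), and USP12 over USP46 was 0.802 (0.657 to 0.978). The pairs of UBE2D and UBE2L enzymes are given above, and USP31 over USP43 rested on the 13 reads of USP43. USP20 and USP33, which share substrates at the beta-adrenergic receptor, were at 0.784 (0.688 to 0.894) and 0.659 (0.419 to 1.03), with a contrast of 1.19 (0.748 to 1.91). For USP25 and USP28 the contrast was 1.21 (0.945 to 1.55), for UBE2A and UBE2B 1.11 (0.867 to 1.42), and for OTUB1 and OTUB2 0.961 (0.711 to 1.30). For OTUD7A and OTUD7B it was 0.690 (0.320 to 1.45). These intervals include 1, which does not show that the relatives behaved alike.

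The remaining deubiquitinases with at least 100 reads lay between 0.693 (USP16, an enzyme for histone H2A, interval 0.484 to 0.988) and 1.23 (USP34, interval 0.824 to 1.85). A further entry named USP34 by the reference table had 38 and 31 reads and a ratio of 0.741 (0.446 to 1.22), on the other side of 1. USP10 was at 0.898 (0.820 to 0.983). USP30, which sits on the mitochondrial outer membrane and opposes mitophagy, had 297 and 306, a ratio of 1.03 (0.936 to 1.13). USP21, USP24, USP25, USP35, USP38, USP39, OTUB2, OTUD1, OTUD4 and OTUD7B, with ratios from 0.916 to 1.17, had intervals that include 1, as did USP6NL. An entry named USP38 by the reference table had 121 and 153 reads and a ratio of 1.15. Rescaling turned OTUD1, OTUD4, UBE2V1, USP2, USP25, USP38, USP39 and USP6NL from below 1 to above 1.

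Members with fewer than 100 reads had wide intervals, which excluded 1 for USP43 and for USP44, given above. USP43 had 12 reads with control and 1 with SMAD4 siRNA, a ratio of 0.0757 (0.00177 to 0.512). USP45 had 4 and 11, a ratio of 2.50 (0.740 to 10.8), and OTUD6B had 11 and 22, a ratio of 1.82 (0.844 to 4.15). OTUD7A had 20 and 14, USP2 had 44 and 48, USP32 had 39 and 52 and USP33 had 51 and 37, all with intervals that include 1. USP26 and USP49 had 1 read in the control library and 0 in the other, and USP51 had 1 in each. OTUD6A and USP48 were listed at 0 in both libraries, besides USP1, UBE2V2, UBE2Q2 and UBE2U.

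Around the members, the rest of the system was mixed. Of 9 entries of the E1 list with a mean value of at least 1, UBA7 was the single one higher by 2-fold and 0 were lower. Among all genes that passed the same minimum these shares were 7.17% and 6.68%. Counts of 2-fold calls in lists this small, here and below, cannot be called particular to the lists. Of 13 measured genes of ubiquitin and its relatives, 1 was higher by 2-fold, SUMO4 on 4 and 10 reads, and 0 were lower. Among the ubiquitin genes, UBB had values of 22480 and 23819, a ratio of 1.06 (1.04 to 1.08). RPS27A, which encodes ubiquitin fused to a ribosomal protein, was at 0.975 (0.937 to 1.01). SUMO2 and SUMO3 were at 1.21 (1.11 to 1.32) and 1.37 (1.29 to 1.46), and UBL5, a ubiquitin-like splicing factor, at 0.571 (0.373 to 0.866).

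Deubiquitinases outside the naming rule had a median log2 ratio of -0.15 over 19 measured entries, 8 of them above 0, against 45.5% of all measured genes. ATXN3, the ataxin-3 protease, was at 1.73 (1.33 to 2.27) and JOSD2 at 1.28 (1.12 to 1.46). CYLD, an entry named from the reference table, and TNFAIP3 restrain NF-kB signalling and were at 0.684 (0.589 to 0.795) and 0.772 (0.714 to 0.835), and JOSD1 was at 0.686 (0.610 to 0.771). By 2-fold, 0 of these 19 were higher and 1 was lower, FAM188B with 47 and 12 reads, against 7.17% and 6.68% of all genes. Of 8 measured proteases of SUMO, NEDD8 and UFM1, 0 passed 2-fold, and DESI2 was at 0.571 (0.525 to 0.621). Of 7 E2-like proteins, 0 passed 2-fold, and ATG10, the enzyme that carries ATG12, was at 0.618 (0.424 to 0.893). Among 8 cofactors and ligases, HERC5 was higher, and ENY2, a subunit of the histone deubiquitinase module built on USP22, was lower, with values of 233 and 43.5 and a ratio of 0.187 (0.119 to 0.285).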

How the data were processed

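Values were used as the authors deposited them, in RPKM with upper-quartile scaling, as the table names state. Library preparation used an Ion Total RNA-Seq kit on TRIzol RNA, per the labels' protocols. The aligner, counter, genome build and annotation were not given in the sources used here. With divisors of 890 (control) and 980 (SMAD4 siRNA), all 18428 genes above 0 gave whole reads when lengths to 40000 bases were tried, at tolerances of 2e-09 (relative) and 1e-06 (absolute). The smallest reads and lengths were used and are lower bounds. Differences are log2((SMAD4 siRNA + 1)/(control + 1)) for calls and medians, at a mean value of at least 1, and plain ratios elsewhere. Intervals are Clopper-Pearson at 95%, and contrasts between 2 genes have an exact conditional interval (scipy 1.17.1, Python 3.11.15). With 1 library per group no test was run. Steps were tested on simulated data. A reference table of assembly Sscrofa11.1 gave names alone, to 2090 of 19902 IDs without a symbol. These include 13 entries named like further members and 6 second entries of members.

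Named are SMAD4, the interferon-linked and TGF-beta-linked members, the 5 highest levels of each family, members past 1.5-fold with at least 100 reads, those past 2-fold on fewer reads, members at 0, the ends of each subgroup and up to 3 genes at each end of the lists of other genes. Further members were named to account for all of them, after their values were seen, as were the pairs. Members and lists were chosen with earlier results of these data known. Some genes that these rules take, 1 E2 enzyme among them, are counted but not reported here. Alternatives were other pseudocounts, minimums and thresholds, centring, rescaling, list means and members named from the reference table. The 1.5-fold rule on plain values with 100 reads was chosen after seeing the data.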

Additional observations from a re-analysis of the deposited data

How the results depend on the processing

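No paired analysis was possible because each group is 1 library. Members higher by at least 2-fold numbered 0, and 1 with a pseudocount of 0.1 (USP45), with centring on the median of all measured genes (UBE2L6) or after rescaling both libraries to an equal sum (UBE2L6). They numbered 7 of 68 at 1.5-fold, a rule for which the share of all genes was not taken. At 1.5-fold on plain values with at least 100 reads they numbered 5 of 59, against 4.62% of all genes with as many reads. Members lower by at least 2-fold numbered 1. They were 0 with a pseudocount of 5, a minimum mean value of 5 or a minimum of 100 reads. They numbered 2 of 72 with no minimum on the mean value and 6 of 68 at 1.5-fold, again with no share of all genes taken. At 1.5-fold on plain values with at least 100 reads they numbered 4 of 59, against 5.84% of all genes with as many reads. The median log2 ratio of the E2 enzymes, 0.06, was 0.11 with centring, 0.18 with rescaling, 0.0206 with the members named from the reference table added, and 0.11 as a mean. That of the deubiquitinases, -0.04, was 0.0097 with centring, 0.0758 with rescaling, -0.0633 with no minimum on the mean value, -0.0125 with a minimum mean value of 5, -0.0632 both with a minimum of 100 reads and with the added members, and -0.0485 as a mean, so its sign is not settled. Of 24 genes followed singly through 4 alternatives, OTUD1 and UBE2V1 changed sign, and 87 of 96 values stayed inside the gene's counting interval.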
